A study of Mus musculus with 4 samples.

Results

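A small population of barcodes in the single-cell RNA sequencing of MD4 germinal center (GC) B cells carried T cell transcripts. The T cells were chosen by measured transcripts: a barcode was counted as a T cell when it held at least 3 unique molecular identifiers (UMIs, the count of captured mRNA molecules) of *Cd3d*, *Cd3e*, *Cd3g* and *Trbc2* together. This rule found 294 of the 28550 barcodes that had 100 to 5500 genes and under 10% mitochondrial UMIs, out of 29473 deposited. The CD45.1+ sort held 50 T cells among 5083 barcodes (0.984%, exact 95% binomial interval 0.731 to 1.29) and the CD45.2+ sort held 244 among 23467 (1.04%, 0.914 to 1.18). Intervals here and below cover counting error only.

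The cells came from the spleens of 6 CD45.1+ wild-type recipient mice, 3 per group, on day 8 after immunization with sheep red blood cells coupled to hen egg lysozyme (HEL). All recipients had received MD4 B cells, whose transgenic receptor binds HEL. These were CD45.1+ cells with intact *Dock8* (*Dock8*wt/wt), mixed with CD45.2+ BCL2.Tg MD4 B cells that were *Dock8*wt/wt in one group and *Dock8*cpm/cpm, an ENU-induced DOCK8-null allele, in the other. The BCL2 transgene is restricted to B cells, and the transferred cells were splenic B cells enriched on magnetic columns. The labels give no genotype for the T cells themselves. Recovered B cells were enriched again, hashtagged by mouse and sorted as HEL+ CD95+ cells into a CD45.1+ and a CD45.2+ fraction, each of which gave 1 mRNA library and 1 hashtag library for all 6 mice. Library and sort therefore cannot be told apart. The study used mice of both sexes aged 8 to 12 weeks, and the T cells were no planned product of the sort.

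T cells recognize peptides through the T cell receptor, whose alpha and beta chains (constant regions *Trac*, *Trbc1* and *Trbc2*) reach the surface only together with the CD3 chains encoded by *Cd3d*, *Cd3e* and *Cd3g*. CD4 T cells read peptides on MHC class II and include the follicular helper cells that sustain GC B cells, whereas CD8 T cells read MHC class I. Naive T cells circulate through the spleen and keep the transcription factors TCF1 (*Tcf7*) and LEF1 (*Lef1*) high. On the GRCm38 assembly *Cd3g* lies at chr9:44969572-44980431 (minus strand), beside *Cd3d* at chr9:44981786-44987339 (plus strand) and *Cd3e* at chr9:44998740-45009627 (minus strand). *Trbc2* lies at chr6:41546730-41548352 (plus strand).

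Each mouse was marked by the DNA barcode of 1 hashtag antibody, and these barcodes carry every statement about mice and about doublets below. Their sequences, read 5′ to 3′, were as follows, and any pair of the 15 pairs differed at 8 to 14 of the 15 positions.
B0301, *Dock8*wt/wt mouse 1: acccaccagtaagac
B0302, *Dock8*wt/wt mouse 2: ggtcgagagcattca
B0303, *Dock8*wt/wt mouse 3: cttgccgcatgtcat
B0304, *Dock8*cpm/cpm mouse 1: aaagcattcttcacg
B0305, *Dock8*cpm/cpm mouse 2: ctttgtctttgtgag
B0306, *Dock8*cpm/cpm mouse 3: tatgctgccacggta

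The libraries stood apart in depth and in hashtag coverage. The CD45.1+ library held 37309131 UMIs (median 5945 per kept barcode) and the CD45.2+ library 196679316 (median 6890). Hashtag counts existed for 4857 of the 5232 CD45.1+ barcodes but for only 14617 of the 24241 CD45.2+ barcodes. The libraries shared 38 barcode sequences. Of these, 2 belonged to CD45.2+ T cells that were also rich in B cell transcripts, and none marked a T cell in both libraries.

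The rule cut a sparse part of the distribution. Of the kept barcodes, 27762 had no UMI of the 4 genes, 466 had 1, 28 had 2, 15 had 3, 10 had 4 and 269 had 5 or more. Just outside the threshold, barcodes with 2 such UMIs held a median of 3.5 UMIs of 20 further T cell genes. Just inside, those with 3 held a median of 7, and those with 10 or more held 21. The 494 barcodes with 1 or 2 UMIs were counted neither as T cells nor as barcodes without T cell transcripts.

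B cell transcripts divided the T cells into 2 sets that differed by sort. The summed level of *Cd79a* and *Cd79b*, which encode the signaling chains of the B cell receptor, and *Cd74*, the MHC class II invariant chain, had a median of 24.2 counts per 10000 UMIs (CP10K) over the 294 T cells. The last barcode below it stood at 24.17 and the first above at 24.24, with 41 T cells between 20 and 30. The lower set (B-low) held 49 CD45.1+ and 98 CD45.2+ T cells, and the upper set (B-high) held 1 CD45.1+ and 146 CD45.2+ T cells. In the CD45.1+ sort 31 of 49 B-low T cells had no UMI of the 3 genes, whereas all 98 in the CD45.2+ sort had some, from 3.10 to 24.17 CP10K. B-high CD45.2+ T cells reached a median of 90.9 CP10K, and CD45.2+ barcodes without T cell transcripts 145 CP10K. The split used these values, so they describe the sets and test nothing.

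**Figure D1:**
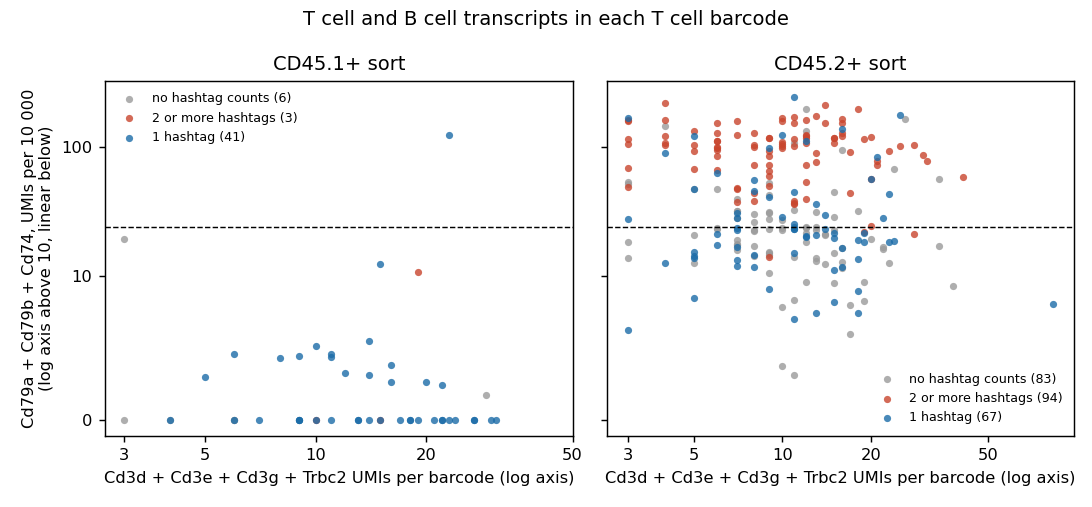
Each point is 1 T cell barcode in the CD45.1+ sort (left) or CD45.2+ sort (right), plotted by its UMIs of the 4 rule genes (x, log axis) and its CP10K of *Cd79a*, *Cd79b* and *Cd74* (y, log above 10 and linear below), and coloured by hashtag call with the number of barcodes. The dashed line is the split at 24.2 CP10K, and barcodes with 2 or more hashtags lie mostly above it.

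Hashtags, which played no part in choosing the T cells, separated the B-high from the B-low set. Among CD45.2+ T cells with hashtag counts, 91 of 117 B-high barcodes carried the hashtags of 2 or more mice (77.8%, 69.2 to 84.9), against 3 of 44 B-low barcodes (6.82%, 1.43 to 18.7). With hashtag counts normalized over each cell, in place of over each hashtag, the shares were 43.6% and 2.27%, and with the split at 60 CP10K, chosen after seeing the data, 87.1% and 26.3%. Barcodes without T cell transcripts in the same library lay between, at 54.9% (7666 of 13967). In the CD45.1+ sort, 3 of 43 B-low T cells were hashtag doublets (6.98%, 1.46 to 19.1), against 32.8% of barcodes without T cell transcripts (1529 of 4668). The share climbed along the B cell transcripts of the CD45.2+ T cells, from 1 of 31 below 20 CP10K and 9 of 28 between 20 and 40 to 10 of 17, 22 of 26 and 52 of 59 in the bins from 40 to 60, 60 to 100 and above 100 CP10K. These shares come from 1 library each and have no replicate test.

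**Figure D2:**
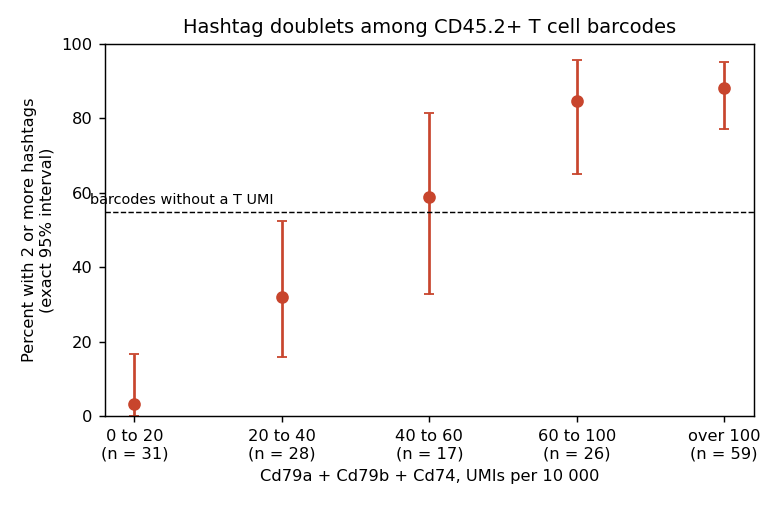
Percent of CD45.2+ T cell barcodes with 2 or more hashtags (y) in bins of *Cd79a*, *Cd79b* and *Cd74* CP10K (x), with exact 95% intervals and the number of barcodes with hashtag counts. The share rises from 3.23% below 20 CP10K to 88.1% above 100 CP10K and crosses that of barcodes without a T UMI, 54.9% (dashed).

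UMI totals followed the same division. B-low T cells had medians of 2917 UMIs and 1113 genes in the CD45.1+ sort and of 3212 UMIs and 1268 genes in the CD45.2+ sort, whereas the CD45.2+ B-high set had 6843 UMIs and 2235 genes. Within the B-high set, the 91 hashtag doublets had a median of 9150 UMIs and the 26 with 1 hashtag a median of 3733. The median number of rule gene UMIs was 10 in the CD45.2+ B-high set and 12 in the B-low set. B-high T cells are therefore reported apart as possible doublets, and the descriptions of genes below are of the 147 B-low T cells.

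B-low T cells expressed the T cell program that the rule did not use. *Trac* was detected in 114 of 147 (77.6%), against 0.861% of barcodes without rule gene UMIs, and *Trbc1*, the alternative beta chain constant region, in 83. *Bcl11b*, a transcription factor that fixes T cell identity, was present in 88 and *Lat*, the adaptor downstream of the receptor, in 105. Over 20 T cell identity genes, 19 were more than 2-fold higher than in barcodes without T cell transcripts (pseudocount of 10 CPM, where CPM is 100 times the CP10K scale, no test), with a median log2 difference of 3.70. Of all 22918 genes with a UMI, 516 (2.25%) were as much higher and 579 (2.53%) as much lower. The exception was *Cd2*, an adhesion receptor that was found in 61.2% of the T cells and 54.8% of the other barcodes. Thinned to 1000 UMIs, *Trac* remained in 34.8% of CD45.1+ and 38.8% of CD45.2+ B-low T cells, and in 0.1% and 0.2% of 1000 other barcodes of each library.

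The 20 leading genes by fold over both sorts pooled, chosen after the rule genes were set aside, were led by *Ccl5*, a chemokine of cytotoxic cells, *Trbc1*, *Trac*, *Cd8b1*, a chain of the CD8 coreceptor, and *Ms4a4b*, a T cell membrane protein. *Ccl5* stood at 4.22 CP10K in the CD45.1+ sort, below *Trbc1* at 9.21, and at 21.1 in the CD45.2+ sort, above *Trbc1* at 6.52. The list went on through *Tcf7*, *Lef1*, *Il7r*, the interleukin-7 receptor, *Bcl11b*, *Dapl1*, *Nkg7*, a cytotoxic granule protein, and *Lat*, to *Skap1*, *Arl4c*, *Thy1*, *Ctla2a*, *Fyb*, *Ms4a6b*, *Gm2682* and *Cd8a*. Of these, 13 stand in the list of 20 genes by which the study named its T cell cluster in these same libraries, which is no independent evidence. *Ms4a4b* reached 12.5 CP10K in CD45.1+ and 11.7 in CD45.2+ B-low T cells, and 0.145 in barcodes without T cell transcripts. Transcripts of T cell receptor V segments were sparse, with 48 UMIs from 29 of 163 V genes in 34 of the 147 cells. The V gene with most UMIs, *Trbv2*, held 3 of the 48 (6.25%).

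CD8 transcripts were more frequent than *Cd4*. A T cell was classed by the larger of its *Cd8a* plus *Cd8b1* UMIs and its *Cd4* UMIs. This gave 68 CD8 cells, 28 CD4 cells and 51 unclassed cells among the 147, and 0 B-low T cells held both. The CD8 share of classed cells was 65.6% (21 of 32, 46.8 to 81.4) in the CD45.1+ sort and 73.4% (47 of 64, 60.9 to 83.7) in the CD45.2+ sort, and the intervals overlapped. It was 52.7% (48 of 91) among CD45.2+ B-high barcodes. Unclassed cells were shallower, with a median of 2697 UMIs against 3370 in classed cells. *Cd4* averaged 3.32 CP10K in the CD4 class, and *Cd8b1* 9.91 in the CD8 class. With cells thinned to 1000 UMIs the shares were 14 of 17 (82.4%) and 36 of 45 (80%), and 82 of the 144 cells deep enough were unclassed. These shares describe classed cells alone, and the lineage of the unclassed cells was not tested. Among cells with under 10 *Ccl5* UMIs, *Nkg7* was found in 40 of 60 CD8, 1 of 28 CD4 and 0 of 43 unclassed cells. Of the 8 unclassed cells with 10 or more *Ccl5* UMIs, 8 held it.

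Of the genes of naive and recirculating T cells, *Lef1*, *Tcf7* and *Klf2* were detected in most B-low T cells, and *Il7r* and *Dapl1* in fewer. *Lef1* was present in 27 of 49 CD45.1+ and 72 of 98 CD45.2+ B-low T cells, at 3.34 and 4.51 CP10K, and *Tcf7* in 28 and 71, at 3.17 and 4.70 CP10K. In barcodes without T cell transcripts *Lef1* stood at 0.00847 and *Tcf7* at 0.00607 CP10K. After thinning to 1000 UMIs both were in a minority, *Lef1* in 19.6% of CD45.1+ and 45.9% of CD45.2+ B-low T cells. *Tcf7* was then in 17.4% and 33.7%. *Il7r* was found in 20 and 49 cells, *Dapl1* in 19 and 28, and *Klf2*, a transcription factor of quiescent lymphocytes, in 29 and 80. *Klf2* was also frequent in the other barcodes, at 57.9%. Thinned to 1000 UMIs, it was present in 41.3% and 45.9% of the B-low T cells and in 17% and 29.5% of the others. Of the 12 genes of this list, 9 were more than 2-fold above the other barcodes and none was below.

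**Figure D3:**
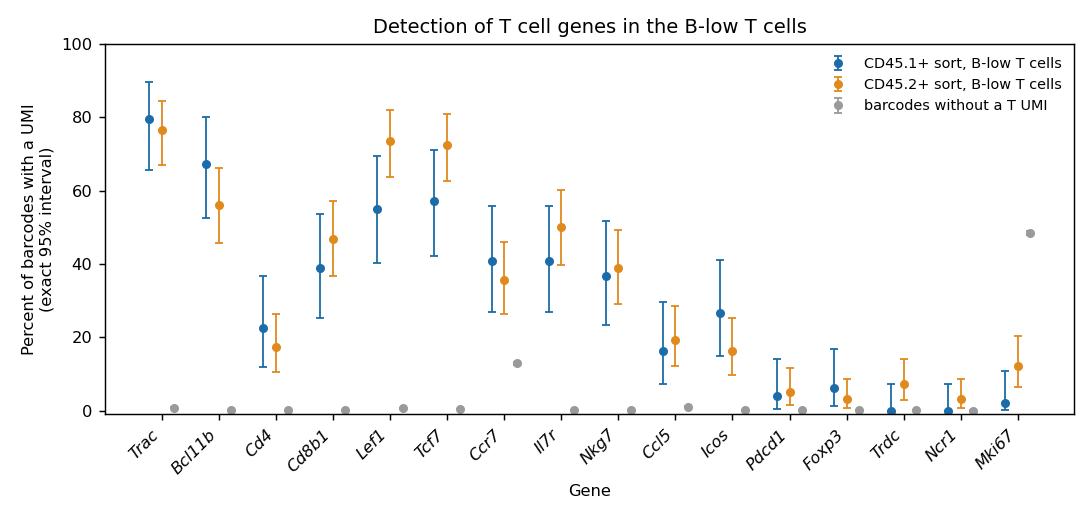
Percent of barcodes with at least 1 UMI of each gene (y) with exact 95% intervals, in B-low T cells of the CD45.1+ sort (blue, n = 49) and the CD45.2+ sort (orange, n = 98) and in 27762 barcodes without a T UMI (grey). *Trac*, *Lef1* and *Tcf7* are frequent in both sorts, *Pdcd1*, *Foxp3*, *Trdc* and *Ncr1* are rare, and *Mki67* is lower than in the other barcodes, which are deeper.

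Of 16 genes listed for follicular helper T cells, 8 were more than 2-fold higher in B-low T cells than in the other barcodes and 1 was lower, while *Pdcd1* and the cytokine genes were found in few cells. *Pdcd1* (PD-1) was found in 7 of 147 B-low T cells (4.76%, 1.94 to 9.57), *Il21* in 2, *Il4* in 4 and *Cd40lg*, the ligand through which T cells help B cells, in 8. *Icos*, a costimulatory receptor, was found in 29, of which 13 were among the 28 CD4 cells (46.4%, 27.5 to 66.1) and 9 among the 68 CD8 cells. At least 2 of *Cxcr5*, *Pdcd1*, *Icos*, *Bcl6*, *Il21* and *Il4* were present in 4 of 28 CD4 cells and 13 of 147 in all. *Cxcr5* and *Bcl6* were no guide, since the deeper barcodes without T cell transcripts held *Cxcr5* in 26.4% and *Bcl6* in 31.7%. Thinned to 1000 UMIs, *Cxcr5* was present in 4.35% of CD45.1+ and 6.12% of CD45.2+ B-low T cells and in 4.9% and 5.6% of the other barcodes. Over both sorts *Sh2d1a*, the adaptor SAP, and *Slamf6* had the most UMIs of the follicular list, 88 each, before *Maf* with 67. *Sh2d1a* was at 2.17 CP10K in the CD45.1+ and 1.40 in the CD45.2+ sort, and *Slamf6* at 1.64 and 1.65. *Maf*, a transcription factor of helper cells, stood at 3.32 CP10K in the CD4 class and 0.0375 in the CD8 class.

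*Foxp3*, the defining factor of regulatory T cells, was found in 6 of 147 B-low T cells (4.08%, 1.51 to 8.67), 3 in each sort. Of these 6 cells, 1 was classed as CD4, 0 as CD8 and 5 were unclassed. *Ctla4*, an inhibitory receptor of activated and regulatory cells, was found in 5 CD45.1+ and 3 CD45.2+ cells. *Il2ra* was found in 3 CD45.1+ cells and 0 of 98 CD45.2+ cells. The latter allows detection in up to 3.06% by 3 counts and does not limit expression. *Ikzf2*, *Izumo1r* and *Tnfrsf18* led the regulatory list over both sorts, with *Ikzf2* highest in the CD45.1+ and *Izumo1r* in the CD45.2+ sort. Of *Cd69*, *Cd44* and the other 10 activation genes, *Icos* was the most abundant, and *Il2* was not detected.

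Cytotoxic genes appeared in a minority of B-low T cells, of which most were CD8 cells. *Nkg7* was detected in 47 of 68 CD8 cells (69.1%, 56.7 to 79.8) and 1 of 28 CD4 cells. At least 2 of *Nkg7*, *Ccl5*, *Gzmk*, *Gzma*, *Gzmb* and *Klrd1* were found in 39 of 147 (26.5%), 31 CD8 and 8 unclassed cells. Effector transcripts were detected in few cells, and at this depth 0 UMIs limits detection, not expression. *Gzmb*, encoding granzyme B, occurred in 3 CD45.1+ cells, 2 of them CD4 cells. It was found in 0 of 98 CD45.2+ cells (allowing detection in up to 3.06% by 3 counts). *Gzmk* occurred in 1 cell and *Ifng*, interferon gamma, in 1 cell. *Ly6c2*, found on memory CD8 cells, was at 3.68 CP10K in CD8 cells and was not detected in CD4 cells.

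*Ccl5* was concentrated in few cells. It was detected in 8 of 49 CD45.1+ and 19 of 98 CD45.2+ B-low T cells, and summed to 4.22 and 21.1 CP10K. In the CD45.1+ sort 3 cells held 10 or more *Ccl5* UMIs, and in the CD45.2+ sort 13 did. The 5 highest of the 147 cells carried 55.8% of all *Ccl5* UMIs, with 134 in the highest. Of the 16 cells with 10 or more, 15 held *Nkg7* and 7 held *Lef1*, whereas *Lef1* was found in 92 of the other 131. None of the 16 was a CD4 cell, 8 were CD8 cells and 8 were unclassed.

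Gamma delta T cells and natural killer cells were at the edge of detection. *Trdc*, the delta chain constant region, was found in 0 of 49 CD45.1+ B-low T cells. That allows detection in up to 6.12% by 3 counts and 7.25% by the exact interval, and does not limit expression. In the CD45.2+ sort *Trdc* was found in 7 of 98 B-low T cells (7.14%, 2.92 to 14.2), and 1 cell held 10 of its 24 UMIs. The gamma chain segments *Tcrg-C4*, *Tcrg-C2* and *Tcrg-C1* were present in 8, 5 and 4 cells. *Ncr1*, a natural killer receptor, occurred in 3 cells, all in the CD45.2+ sort, and *Zbtb16*, the factor of natural killer T cells, in 1. The 10 genes of the natural killer list summed to 0.997 CP10K in the CD45.1+ sort, where *Eomes* was highest and *Tyrobp* was at 0, and to 4.37 in the CD45.2+ sort, where *Klrk1* was highest.

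Proliferation transcripts were less abundant in B-low T cells than in the other barcodes. *Mki67* was found in 1 of 49 CD45.1+ and 12 of 98 CD45.2+ cells, and *Top2a* in 3 and 18, against 48.5% and 39.3% of barcodes without T cell transcripts. Thinned to 1000 UMIs, *Mki67* was present in 0% (upper bound 7.71) and 5.10% of the B-low T cells, against 14.1% and 19.3% of other barcodes. Of 16 proliferation genes, 10 were more than 2-fold lower in the T cells than in the other barcodes and none was higher. The summed level was 3.87 CP10K in the CD45.1+ sort and 11.7 in the CD45.2+ sort, with *Pcna* highest in the first and *Stmn1* in the second. The difference between sorts ran alongside that of B cell transcripts, and their part in it was not tested.

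Markers of other blood cells were low. Of 10 myeloid genes, *Cst3* at 1.05 CP10K and *Itgam* were detected in B-low T cells and the other 8, *Lyz2*, *S100a8*, *Csf1r* and *C1qa* among them, were at 0. Of 8 dendritic cell genes, *Bst2* and *Itgax* were detected, and *Flt3*, *Zbtb46*, *Xcr1* and *Clec9a* were at 0. Hemoglobin and platelet genes summed to 0 in the CD45.1+ and 0.055 CP10K in the CD45.2+ sort.

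B cell transcripts were present in the B-low T cells of both sorts, at levels that differed between the libraries. The kappa light chain *Igkc* was detected in all 147, with a median per cell of 24.8 CP10K in the CD45.1+ sort and 94.0 in the CD45.2+ sort. Its sums, 243 and 257 CP10K, lay closer because 1 CD45.1+ cell held 3798 of 4145 *Igkc* UMIs and 1 CD45.2+ cell held 3893 of 9353. Both of these cells were hashtag doublets that fell in the B-low set. *Cd74* was found in 10 of 49 CD45.1+ cells and in 96 of 98 CD45.2+ cells, at 0.997 and 10.3 CP10K, which was 1.28% and 11.3% of its level in barcodes without T cell transcripts in the same library. *Ms4a1* (CD20) stood at 1.78% and 13.5% of that level, and *Pax5*, the factor of B cell identity, at 0% and 18.8%. All 16 B cell identity genes were more than 2-fold lower than in barcodes without T cell transcripts. Whether these UMIs came from free RNA in the droplets or from attached B cells was not tested.

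The question of whether the B cell genotype or the sort went with the number of T cells was addressed per mouse, among barcodes assigned to 1 hashtag and with B-high T cells counted. In the CD45.1+ sort the T cell share was 2.28% (9 of 395), 1.54% (8 of 519) and 1.16% (11 of 947) in the *Dock8*wt/wt group and 1.01% (5 of 496), 0.295% (1 of 339) and 1.38% (7 of 508) in the *Dock8*cpm/cpm group. The groups overlapped. The means were 1.66% ± 0.568 (SD, n = 3) and 0.894% ± 0.550 (SD, n = 3), a difference of -0.767 percentage points (exact two-sided permutation p = 0.2, adjusted 0.6 over 6 tests). With single mice left out it ran from -1.02 to -0.458 points. With hashtags normalized over each cell its sign turned, at 0.191 points (exact permutation p = 1). The *Dock8*cpm/cpm mice then kept only 26, 16 and 57 assigned barcodes in this sort, with 0, 0 and 4 T cells. In the CD45.2+ sort the share was 0.648% (13 of 2007), 1.19% (31 of 2607) and 1.02% (17 of 1672) in the *Dock8*wt/wt group and 0% (0 of 57, which allows up to 5.26% by 3 counts and 6.27% by the exact interval), 2.27% (1 of 44) and 4.95% (5 of 101) in the *Dock8*cpm/cpm group. The *Dock8*cpm/cpm mice lay on both sides of the *Dock8*wt/wt mice, and their denominators were small. With the highest hashtag required to be 3 times the next, in place of HTODemux, these mice had 229, 160 and 481 assigned barcodes. The difference was 1.46 points (exact two-sided permutation p = 0.4, adjusted 0.825). Leaving out single mice moved it between 0.185 and 2.66 points. It was 0.144 points under the 3-fold rule (exact permutation p = 0.7) and 0.00342 points with hashtags normalized over each cell (exact permutation p = 1). Among B-low T cells alone the CD45.2+ share was 0.349%, 0.652% and 0.658% in the *Dock8*wt/wt mice and unaltered in the *Dock8*cpm/cpm mice, a difference of 1.85 points (exact permutation p = 0.4). With 3 mice against 3, the smallest possible p is 0.1.

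Within mice, the T cell share was higher in the CD45.1+ than in the CD45.2+ sort in 4 of 6 animals. The mean difference was -0.402 points ± 1.98 (SD, n = 6, exact sign-flip permutation p = 0.6875, adjusted 1, smallest possible 0.03125), with the sign set by the *Dock8*cpm/cpm mouse with 5 of 101. The sort difference did not pass a test between the groups either (difference of -2.22 points, exact permutation p = 0.3, adjusted 0.75). Leaving out single mice moved that difference between -3.48 and -1.19 points. Without *Dock8*cpm/cpm mouse 3 the within-mouse mean was 0.232 points.

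**Figure D4:**
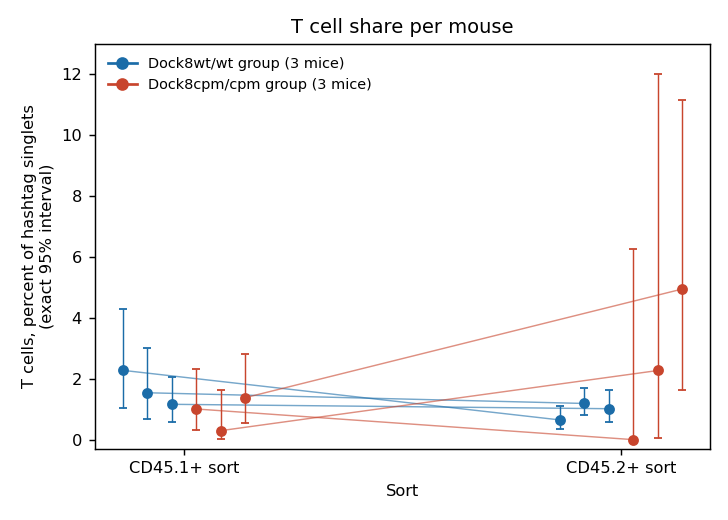
T cells as a percent of barcodes assigned to 1 hashtag (y) for each of 6 mice in the CD45.1+ and CD45.2+ sort (x), with exact 95% intervals, lines joining the sorts of 1 mouse, and colour for the group of the transferred B cells. The *Dock8*wt/wt mice range from 0.648% to 2.28%, and the *Dock8*cpm/cpm mice from 0% to 4.95% with wide intervals in the CD45.2+ sort.

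The CD8 share per mouse rested on few cells. In the 3 mice with at least 3 classed T cells in both sorts, all *Dock8*wt/wt, it was 5 of 6, 6 of 7 and 4 of 8 in the CD45.1+ sort and 4 of 9, 12 of 17 and 6 of 16 in the CD45.2+ sort, B-high T cells included. It was higher in the CD45.1+ sort in each, with means of 73.0% and 50.8% and a mean difference of 22.2 points ± 14.5 (SD, n = 3, exact sign-flip permutation p = 0.25, adjusted 0.6, the smallest this design can give). Among B-low T cells alone it was 4 of 5, 6 of 7 and 4 of 8 against 3 of 6, 10 of 11 and 5 of 10, higher in the CD45.1+ sort in 1 of 3 mice, with a mean difference of 8.27 points (exact permutation p = 1). With cells thinned to 1000 UMIs the sign turned, at -1.29 points over the mice that still met the minimum. Between groups in the CD45.1+ sort only *Dock8*cpm/cpm mouse 3 met the minimum, with 3 CD8 cells of 5 classed against the *Dock8*wt/wt mean of 73.0%. With 1 mouse in an arm the exact permutation test could not go below 0.25, and nothing is read from it, although it counts among the 6 tests adjusted together.

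Genes were compared between the sorts in the 4 mice with at least 3 B-low T cells assigned to 1 hashtag in each, the 3 *Dock8*wt/wt mice and *Dock8*cpm/cpm mouse 3. UMIs were summed per mouse and sort, to 16954 to 59241 per sum, and edgeR's quasi-likelihood test was run with the mouse as block. Of 244 genes tested, 6 were called at a Benjamini-Hochberg adjusted p under 0.05 (2.46%), 5 higher in the CD45.2+ (2.05%) and 1 higher in the CD45.1+ sort (0.41%). The 5 were immunoglobulin and MHC class II genes, which B cells express highly. The balance of directions depended on the settings. With size factors computed by the DESeq2 method over the 244 tested genes in the same test, 6 were higher and 3 lower in the CD45.2+ sort. With 2 T UMIs required 10 were higher and 14 lower, and under the 3-fold hashtag rule 8 were higher and 5 lower. Other settings gave mostly higher calls: 23 higher and 1 lower of 10034 genes tested without a filter on low counts, and 17 and 6 of 402 with B-high T cells included. Without *Dock8*cpm/cpm mouse 3 there were 10 higher and 0 lower of 386. *Cd74* stood at 215, 118, 31.8 and 99.3 CPM (scaled by the trimmed mean of M-values) in the CD45.1+ sums and at 1300.2, 1791, 1720 and 1215 CPM in the CD45.2+ sums, listed for *Dock8*wt/wt mice 1 to 3 and *Dock8*cpm/cpm mouse 3. The sorts did not overlap, and the log2 difference was 3.91 ± 0.44 (SE). *Cd74* is 1 of the 3 genes that set the B split, so its call is a description and supports nothing.

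*H2-Ab1*, the beta chain of MHC class II, differed by 3.28 ± 0.42 on the log2 scale, *Jchain*, which joins secreted IgM, by 3.50 ± 0.58, the heavy chain *Ighm* by 2.93 ± 0.40 and *Igkc* by 2.64 ± 0.56. Each was higher in the CD45.2+ sum of every mouse. In the CD45.1+ sums *H2-Ab1* had 1, 1, 2 and 2 UMIs and *Jchain* 4, 4, 5 and 7, in the same order of mice. Both met the filter on low counts through the CD45.2+ sums, so their calls, like that of *Cd74*, are descriptions and support nothing. *Igkc* reached 88941 CPM in *Dock8*wt/wt mouse 3, where 1 cell held 2491 of 2793 *Igkc* UMIs, and between 14837 and 18059 CPM in the other CD45.2+ sums. In that mouse 1 cell also held 496 of 614 *Ighm* UMIs and 1 cell 221 of 251 *Jchain* UMIs. Without the mouse the log2 differences were 2.28 for *Jchain*, 2.06 for *Ighm*, 1.74 for *Igkc* and 3.28 for *Cd74*, and all 6 calls remained. Without *Dock8*cpm/cpm mouse 3 that of *Jchain* was 4.29. *Tpt1*, named for the translational control of its own mRNA, was lower in the CD45.2+ sort, at 10759 to 13147 CPM against 15251 to 17077 CPM, with a log2 difference of -0.50 ± 0.11 (edgeR adjusted p = 0.0362). This call was lost without *Dock8*wt/wt mouse 2 (log2 -0.45, edgeR adjusted p = 0.141) and without *Dock8*cpm/cpm mouse 3 (log2 -0.46, edgeR adjusted p = 0.199). The difference itself stayed about as large. DESeq2, which tested 10034 genes, called *Jchain* and *Cd74* alone, with adjusted p-values of 0.464 for *H2-Ab1*, 0.0557 for *Ighm*, 0.9998 for *Igkc* and 0.184 for *Tpt1*.

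*Ccl5* did not pass (edgeR adjusted p = 0.051). Its CD45.1+ sums held 71.8, 118, 1589 and 0 CPM and its CD45.2+ sums 10908, 5201, 1815 and 12928 CPM in the same order of mice. The sorts did not overlap, but in each CD45.2+ sum most *Ccl5* UMIs came from 1 cell, from 103 of 183 in *Dock8*wt/wt mouse 2 to 134 of 151 in *Dock8*wt/wt mouse 1. The 4 rule genes, which chose the cells, had a median log2 difference of -0.20, given as a description, against 0.00395 over all genes tested. None of the 4 T cell identity genes tested was called by edgeR (median -0.04, 0 with an unadjusted p under 0.05), nor *Cd8b1* (-0.67), nor any of the 2 naive genes tested (median 0.10). The follicular, regulatory, gamma delta and proliferation lists had no gene with enough counts.

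**Figure D5:**
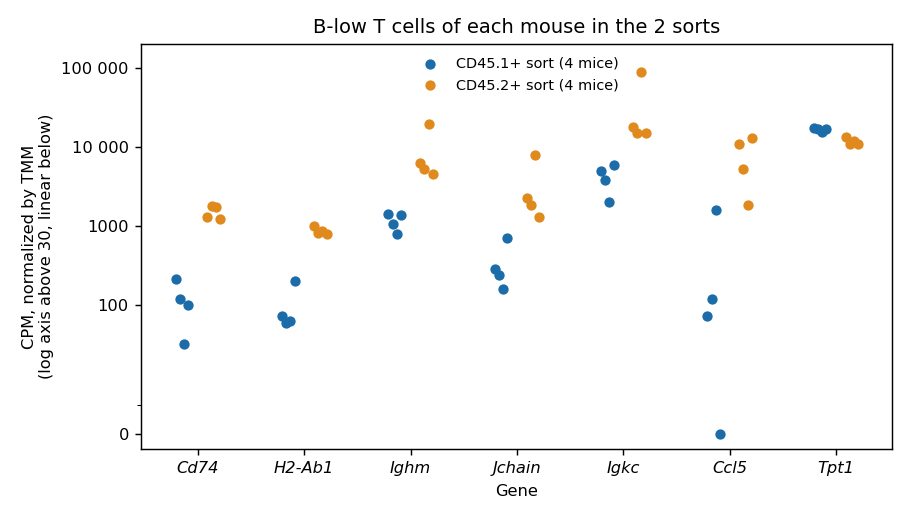
CPM of the 6 called genes and *Ccl5* (y, log above 30 and linear below) in B-low T cells summed per mouse, in the CD45.1+ sort (blue) and CD45.2+ sort (orange), 1 point for each of 4 mice. The 5 B cell genes are higher in the CD45.2+ sort in every mouse, *Tpt1* is lower, and *Ccl5* runs from 0 to 12928 CPM.

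Genes were also compared between the groups within the CD45.1+ sort, which holds CD45.1+ cells of *Dock8*wt/wt origin in both groups. The 3 *Dock8*wt/wt mice and *Dock8*cpm/cpm mice 1 and 3 gave sums of 5 to 11 cells, and *Dock8*cpm/cpm mouse 2, with 1 cell, was left out. *Dock8* itself had 0, 3 and 3 UMIs in the *Dock8*wt/wt mice and 1 and 7 UMIs in the *Dock8*cpm/cpm mice, too few to be tested. The mutant allele belongs to the transferred CD45.2+ B cells, so *Dock8* mRNA in these T cells checks no label.

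Of 273 genes tested, 7 were called (2.56%), 6 higher (2.2%) and 1 lower (0.366%) in the *Dock8*cpm/cpm group. DESeq2 called 0 higher and 1 lower, *Rps20*, of 8299 genes (61 at an unadjusted p under 0.05), and edgeR called 0 with hashtags normalized over each cell (34 at an unadjusted p under 0.05), where 4 mice remained and *AW112010* differed by 0.55 on the log2 scale. *S100a4*, a calcium-binding protein of effector and memory T cells, had 0, 0 and 1 UMIs in the *Dock8*wt/wt mice and 8 and 19 in the *Dock8*cpm/cpm mice. The difference rested on 2 cells, with 7 of the 8 and all 19 of the UMIs. *S100a4* met the filter on low counts through the *Dock8*cpm/cpm sums, where it was high. Its call is therefore a description and supports nothing. *AW112010*, an interferon-responsive transcript, stood at 561, 467 and 891 CPM against 3401 and 2829 CPM (log2 2.19 ± 0.38, edgeR adjusted p = 0.000115), and 1 cell of *Dock8*cpm/cpm mouse 3 held 19 of its 28 UMIs. Without the *Dock8*cpm/cpm sums, where it was high, *AW112010* would not have met the filter on low counts. Its call too is a description and supports nothing. *Ly6a*, the surface antigen Sca-1, differed by 2.31 ± 0.61, *Apbb1ip*, an adaptor in integrin activation, by 2.07 ± 0.57, the nuclear RNA *Malat1* by 0.66 ± 0.17 and *Tmsb4x*, an actin-binding peptide, by 0.57 ± 0.15. *Ly6a* and *Apbb1ip* also met the filter on low counts through the *Dock8*cpm/cpm sums, so their calls are descriptions and support nothing. *Malat1* and *Tmsb4x* were smaller with DESeq2, at 0.27 and 0.17, and in edgeR without a filter on low counts, at 0.08 and -0.05. Neither was called there. *Apbb1ip* was smaller in these 2 runs too, at 1.70 and 1.44, as was *AW112010*, at 1.82 and 1.54. The part of scaling in these shifts was not tested. With size factors computed by the DESeq2 method over the 273 tested genes in edgeR, *Malat1* and *Tmsb4x* stood at 0.62 and 0.53. The calls were narrowly lost (edgeR adjusted p = 0.0559 and 0.0567). The ribosomal protein gene *Rps20* was lower, by -0.62 ± 0.17. It stood at -1.02 with DESeq2, and at -1.24 in edgeR without a filter on low counts, where it was not called. *Ly6a* had 1, 0 and 15 UMIs in the *Dock8*wt/wt mice and 13 and 10 in the *Dock8*cpm/cpm mice, and without *Dock8*wt/wt mouse 3 its log2 difference was 4.86. The number of calls fell to 0 without *Dock8*wt/wt mouse 2 (26 genes at an unadjusted p under 0.05) and was 18 without *Dock8*wt/wt mouse 1, and it was 1 without either *Dock8*cpm/cpm mouse. Of 16 genes tested from the study's T cell list, *AW112010* alone was called and 15 were higher in the *Dock8*cpm/cpm group, with a median log2 difference of 0.62 against 0.07 over all genes tested. That list was drawn from these samples and holds genes of the rule, so its direction is given as a description. None of the 6 T cell identity genes tested was called by edgeR, and *Bcl11b* alone had an unadjusted p under 0.05.

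Sex-linked transcripts were compared between T cells and the other barcodes of the same mice. *Xist*, the RNA of the inactive X chromosome, and the Y-linked *Ddx3y*, *Eif2s3y*, *Kdm5d* and *Uty* were summed over barcodes assigned to 1 hashtag. In the CD45.2+ sort, barcodes without T cell transcripts held 1.89, 1.54 and 1.81 Y-linked CP10K in the 3 *Dock8*cpm/cpm mice and 0.0427 to 0.0508 in the *Dock8*wt/wt mice, with *Xist* at 2.65 to 3.95 and at 12.1 to 14.3 CP10K. The 6 B-low T cells of the *Dock8*cpm/cpm mice in that sort held 0 Y-linked UMIs among 24436, which allows up to 1.23 CP10K by 3 counts and 1.51 by the exact Poisson interval. At the rate of the other barcodes of the same mice, 4.31 such UMIs would have been present. The same 6 cells held 16 *Xist* UMIs (6.55 CP10K, 3.74 to 10.6). B-low T cells of *Dock8*wt/wt mice held 8.71 *Xist* and 0.0726 Y-linked CP10K in the CD45.2+ sort, and 69 *Xist* and 0 Y-linked UMIs among 98510 in the CD45.1+ sort. In the CD45.1+ sort the 13 B-low T cells of the *Dock8*cpm/cpm mice stood at 10.7 *Xist* and 0 Y-linked CP10K, beside 13.4 and 0.0206 in the other barcodes of those mice. The labels do not give the sex of any mouse, and whether the 6 T cells came from the transferred or the recipient cells was not tested.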

How the data were processed

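Spleen cells of 6 mice were sequenced as 2 mRNA and 2 hashtag libraries. Per the labels, reads were aligned to mm10 and quantified with Cell Ranger 5.0.1. The authors deposited unnormalized UMI counts, by gene for mRNA and by antibody for hashtags. The submitters' processing notes also name Seurat 4.0. The deposited hashtag table gives mouse and group. Here, hashtags were normalized by CLR over each hashtag and assigned with HTODemux (Seurat 5.3.0, quantile 0.99). No other doublet caller was run. T cells were split at the median B cell transcript level, and UMIs were summed to CP10K with exact Poisson intervals. Shares were compared by exact permutation over mice (6 tests, Benjamini-Hochberg adjusted), and sums per mouse by edgeR 4.0.16 (TMM, filterByExpr, at least 3 cells, R 4.3.3), with DESeq2 1.42.0 as second tool. The sort comparison was blocked by mouse, since a hashtag marks the same animal in both sorts. P-values measure the spread between these mice. In simulated counts of the 244 genes of the sort comparison, 71.5% of 200 genes changed 2-fold and 100% of those changed 4-fold were recovered, and of the 273 genes of the group comparison 20.5% and 92.5%.

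Named genes were the rule genes, fixed subset markers, the 3 most abundant genes of fixed lists, the 20 leading genes and up to 5 called genes per direction. *Cd2*, *Ms4a1*, *Pax5*, *Tcrg-C2* and *Tmsb4x* were named after their values were seen. *Trgc1* of the gamma delta list was not among the 32285 features. The T cells, lists and tests were chosen with earlier results of these data known. Gene positions come from GENCODE M21 (GRCm38). Python 3.11.15, scipy 1.17.1, pandas 2.3.3 and matplotlib 3.10.9 were used. The alternatives were other UMI, gene and B cell thresholds, other hashtag rules, thinning, other normalizations and filters, and each mouse left out.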

Additional observations from a re-analysis of the deposited data

Results flagged for a closer look

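Among CD45.2+ T cells, 83 had no hashtag counts and entered no comparison between mice, 54 of them in the B-low and 29 in the B-high set. Barcodes without hashtag counts made up 55.1% of the CD45.2+ B-low T cells (54 of 98, 44.7 to 65.2), 19.9% of the B-high T cells and 38.7% of barcodes without T cell transcripts, against 12.2% of the CD45.1+ B-low T cells. Their classes were 35 CD8, 18 CD4 and 30 unclassed.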

How the results depend on the processing

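Of 335 recomputed values, 257 counted as the same, 46 lost significance, 24 moved and 8 turned sign, and the causes were not tested. A tested value counted as the same when it kept its direction and its side of the threshold, passed or not. Numbers of calls or of T cells had to stay within a fixed ratio of the reported number. CD8 and doublet percentages had to stay within the exact interval of the reported value. The sort difference in T cell share ranged from -0.809 to 0.232 points with single mice left out, and was 0.0515 with the highest hashtag required to be 3 times the next. With hashtags normalized over each cell it was 1.18 points, and B-high doublets made up 43.6%. Under that rule the group difference in the CD45.1+ sort was 0.191 points and the difference between groups of the sort effect 0.187 points. These values rest on 26, 16 and 57 assigned barcodes in the CD45.1+ sort of the *Dock8*cpm/cpm mice. The CD8 share differed between sorts by -1.29 points with cells thinned to 1000 UMIs, where the CD45.1+ B-low share was 82.4%, and between groups by 2.78 points with at least 500 genes and under 5% mitochondrial UMIs. A B split at 60 CP10K, chosen after seeing the data, gave 87.1% doublets in the B-high and 26.3% in the B-low set.

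Genes called between sorts, 6 as reported, numbered 24 with 2 T UMIs required, 10 with 5, 10 with the stricter cell filter, 13 with the 3-fold hashtag rule, 11 with hashtags normalized over each cell, 23 with B-high T cells included, 17 with the split at 60 CP10K, 2 with DESeq2, 24 without a filter on low counts and 7 to 11 with single mice left out (11 when *Dock8*wt/wt mouse 1 was left out, and 10 each for mouse 3 of either group). The number of genes tested, 244 as reported, was 10034 without a filter and with DESeq2, and 402 with B-high T cells included. Without the mouse block 8 were called, and the 6 reported calls remained. *Cd74* and *Jchain* were called in 16 of 16 alternatives, *Ighm* and *Igkc* in 15 of 16, *H2-Ab1* in 14 of 15 and *Tpt1* in 13 of 16. The calls of *Cd74*, *Jchain* and *H2-Ab1* remain descriptions. Of the group calls, *S100a4* was called in 11 of the 12 alternatives that tested it, which remains a description. It had no test with hashtags normalized over each cell or when *Dock8*cpm/cpm mouse 3 or *Dock8*wt/wt mouse 2 or 3 was left out. *AW112010* was called in 11 of 16, *Rps20* in 10 of 16, *Ly6a* in 9 of 15, *Malat1* in 8 of 16, *Apbb1ip* in 7 of 13 and *Tmsb4x* in 7 of 16. The calls of *AW112010*, *Ly6a* and *Apbb1ip* likewise remain descriptions. Genes called between groups, 7 as reported, numbered 2 with the 3-fold hashtag rule, 0 in edgeR with hashtags normalized over each cell (34 at an unadjusted p under 0.05), 1 with DESeq2, 1 without a filter and 0 to 18 with single mice left out. Without a filter the log2 difference of *Tmsb4x* was -0.047. Depth limits these comparisons: sums of 1 mouse held at most 59241 UMIs from 17 or fewer T cells.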

Other observations

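The highest rule gene count, 83 UMIs, belonged to a CD45.2+ B-low T cell. CD45.2+ T cells in the B-high set with 1 hashtag had a median of 51.4 CP10K of *Cd79a*, *Cd79b* and *Cd74*, below the 103 CP10K of the B-high hashtag doublets. Y-linked UMIs in CD45.2+ B-high T cells summed to 45 of 1261336 (0.357 CP10K), against 3 of 363644 (0.0825 CP10K) in CD45.2+ B-low T cells. Members of the DOCK family list showed no fold over 2 between B-low T cells and the other barcodes: *Dock2*, the DOCK protein that drives lymphocyte motility, stood at 2.05 CP10K in CD45.1+ and 1.81 in CD45.2+ B-low T cells, and *Dock8* at 1.35 and 1.04 CP10K.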
